A study of Mus musculus with 4 samples.

Results

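Regulatory T cells (Tregs) of tibial muscle were followed in *Nse-Bmp4* mice before and after injury. They were taken as single cells with at least 1 unique molecular identifier (UMI, the tag that marks 1 captured RNA molecule) of *Foxp3*, at least 1 UMI of *Cd3d*, *Cd3e* or *Cd3g*, no UMI of *Cd8a* or *Csf1r*, and at most 10% of their UMIs from mitochondrial genes. 86 of the 59824 cells within the mitochondrial limit met this rule. The 86 Tregs were 4 cells in the Uninjured library, 38 at 1 day post injury (dpi), 23 at 3 dpi and 21 at 7 dpi. They held 512476 UMIs in all.

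All 4 libraries came from C57BL/6 mice aged 6 to 8 weeks that carry the *Nse-Bmp4* transgene, in which a rat *Nse* promoter drives murine *Bmp4*. No library without the transgene was analysed, so every group shares it. Muscle was injured with cardiotoxin, a snake venom toxin that kills muscle fibres, and in these mice the injured muscle goes on to form bone (heterotopic ossification). Each library was a pool of 3 tibial muscles digested with collagenase, and each time point was 1 library, so no test between time points was possible and the intervals given on levels and shares cover counting error only.

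Tregs are CD4 T cells that restrain other immune cells. *Foxp3* encodes the transcription factor that defines the lineage, and the cells keep a high-affinity interleukin-2 receptor and the inhibitory receptor CTLA-4 at the surface. In muscle, Tregs gather after injury, and a subset that bears the interleukin-33 receptor ST2 (encoded by *Il1rl1*) and secretes the growth factor amphiregulin (*Areg*) is known to act on repair.

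*Foxp3* (ENSMUSG00000039521, chromosome X, 7573644 to 7595245 in GRCm38) was carried by 122 deposited cells, of which 2 were over the mitochondrial limit, 30 had no *Cd3* UMI and 4 had a *Cd8a* UMI. Just inside the rule, 39 Tregs had a single *Foxp3* UMI and 12 had a single *Cd3* UMI. The highest *Foxp3* count was 7 UMIs, in 1 cell. Just outside it, 10 of the 30 cells without a *Cd3* UMI carried any of the other 4 marker genes named for these cells, *Ctla4*, *Tnfrsf4*, *Izumo1r* and *Areg*, against 81 of the 86 Tregs (94.2%). None of the 4 was used by the rule. Only 46.5% of the Tregs had a *Cd4* UMI, and why the others had none was not tested. Any of the 4 markers was carried by 43 of the 46 without a *Cd4* UMI and by 38 of the 40 with one.

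*Foxp3* UMIs were rare where the gene should be silent. They were found in none of 1666 cells of a B cell gate (*Cd79a* and *Ms4a1* UMIs), which allows a share of up to 0.221% (exact 95% upper bound), in 2 of 2081 cells of an NK cell gate (*Klrb1c* or *Ncr1* UMIs, 0.0961%) and in 4 of 773 *Cd3*-positive cells with a *Cd8a* UMI (0.517%). All 4 of the latter had *Ctla4* and *Ikzf2* UMIs and 3 had *Areg* UMIs, at a median depth of 6637 UMIs. Whether these 4 were Tregs or mixed droplets was not tested. The median depth was 3560.5 UMIs per Treg, 2751.5 per B cell and 3378 per NK cell. Markers of Tregs were not limited to the cells with *Foxp3*. Of 521 conventional CD4 T cells, 68 (defined by *Cd3* and *Cd4* UMIs and none of *Foxp3*, *Cd8a* or *Csf1r*) carried at least 2 of the 4 other markers, 32 of them with an *Ikzf2* UMI, against 57 of the 86 Tregs and 8 of 765 CD8 T cells.

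*Ctla4*, *Tnfrsf4* and *Izumo1r* UMIs were found in a larger share of Tregs than of conventional CD4 T cells. *Ctla4* UMIs were found in 74.4% of Tregs (exact 95% interval 63.9 to 83.2), 25.9% of conventional CD4 T cells and 10.2% of CD8 T cells. *Tnfrsf4* was carried by 59.3% of Tregs (48.2 to 69.8) against 13.6% and 0.915%, and *Izumo1r* by 37.2% (27.0 to 48.3) against 11.5% and 2.75%. In the B cell gate the 3 shares were at 0.540% or below. With each cell thinned to 1000 UMIs, Tregs and conventional CD4 T cells had shares of 47.1% and 12.6% for *Ctla4*, 27.1% and 4.47% for *Tnfrsf4* and 17.6% and 4.85% for *Izumo1r*.

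Some droplets held more than T cell RNA. 15 of the 86 Tregs (17.4%) carried a *Pdgfra* UMI or at least 10 UMIs of *Col1a1*, genes of mesenchymal cells. Their median depth was 9861 UMIs against 3335 in the other 71, and they supplied 39.3% of all Treg UMIs, from 0% in Uninjured to 65.2% at 3 dpi. Among conventional CD4 T cells 55 of 521 did so, with 25.7% of the UMIs. The summed level of 7 mesenchymal genes in Tregs was 811, 4738, 21459 and 21956 counts per 1e+06 UMIs (CPM) in Uninjured, 1, 3 and 7 dpi, and 811, 308, 576 and 1247 CPM without these 15 cells. Genes of other cell types were also present. The summed level in Tregs ranged over the libraries from 0 to 891 CPM for 7 dendritic cell genes (129 to 1008 CPM in conventional CD4 T cells), from 192 to 449.6 CPM for 6 B cell genes (112 to 290.0), from 0 to 192 CPM for 7 neutrophil genes (9.93 to 367), from 0 to 167 CPM for 7 monocyte and macrophage genes (6.62 to 299.6), from 16.7 to 324 CPM for 3 endothelial genes (23.4 to 92.4), from 0 to 16.0 CPM for 5 NK cell genes (16.4 to 94.5), from 0 to 11.7 CPM for 4 gamma-delta T cell genes (0 to 51.4), and from 0 to 1054 CPM for 4 cartilage genes (0 to 1289.7). *Cd74* was found in 27 of the 86 Tregs, *Ighm* in 48, *S100a9* in 24 and *Pecam1* in 15, while *Ly6g*, *Cdh5*, *Ncr1*, *Trdc* and *Ms4a2* were at 0. The part of this RNA in the results was not tested. Results are given below with and without the 15 cells where they change.

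**Figure D1:**
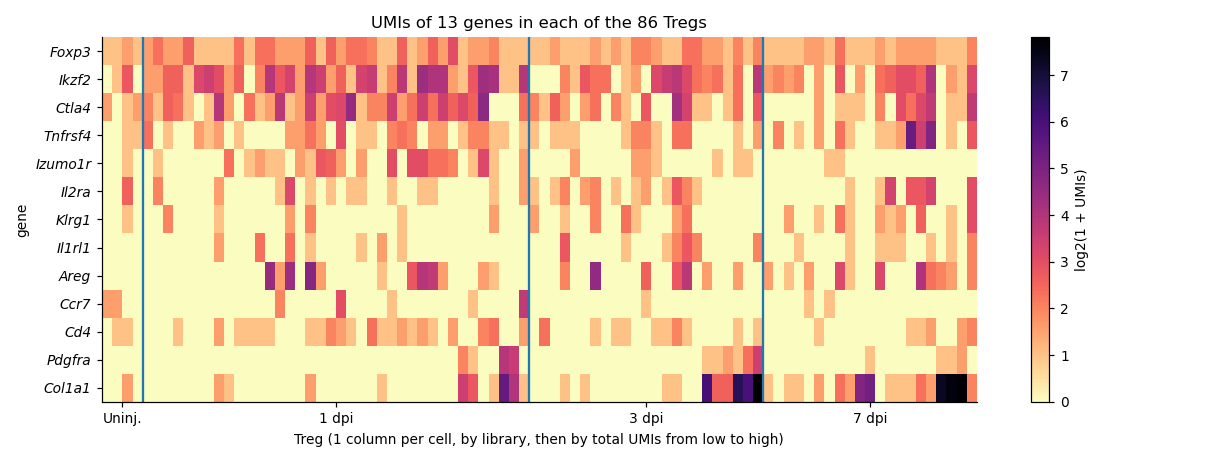
UMIs of 13 genes (rows) in each of the 86 Tregs (columns), grouped by library and ordered from low to high total UMIs; colour is log2(1 + UMIs). *Foxp3* is filled throughout because it chose the cells, *Ikzf2* and *Ctla4* fill most columns, *Areg* is concentrated in few cells, and *Col1a1* is high in a few of the deepest cells at 1, 3 and 7 dpi.

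How large a part of the *Cd3*-positive cells were Tregs was asked first. Tregs made up 0.749% of the *Cd3*-positive cells in Uninjured (4 of 534, exact binomial 95% interval 0.204 to 1.91), 3.86% at 1 dpi (38 of 984, 2.75 to 5.26), 1.54% at 3 dpi (23 of 1490, 0.981 to 2.31) and 0.995% at 7 dpi (21 of 2111, 0.617 to 1.52). The 1 dpi share lay above the intervals of the other 3 libraries, whose intervals overlapped each other. Depth differed between libraries, with a median of 4530.5 UMIs per Treg at 1 dpi against 2551 at 3 dpi. With every cell thinned to 1000 UMIs before the rule was applied, which leaves 1, 11, 8 and 6 Tregs, the shares were 0.259%, 1.83%, 0.857% and 0.520%. The order stayed the same but the interval at 1 dpi (0.919 to 3.26) then overlapped those of the other libraries. Without the cells that carry mesenchymal UMIs the share at 7 dpi was 1.77% (1.02 to 2.86), above that at 3 dpi (1.34%), and the share at 1 dpi was 3.98%. This step left 429 of 534, 855 of 984, 1270 of 1490 and 902 of 2111 *Cd3*-positive cells in Uninjured, 1, 3 and 7 dpi. The main shares are therefore not shares of T cells alone, least of all at 7 dpi. As a part of all cells with a *Ptprc* UMI, the general leukocyte marker, Tregs made up 0.277% (0.0756 to 0.708), 0.667% (0.473 to 0.915), 0.440% (0.279 to 0.659) and 0.587% (0.364 to 0.896). These intervals all overlapped, so by this count the share at 1 dpi did not stand apart.

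**Figure D2:**
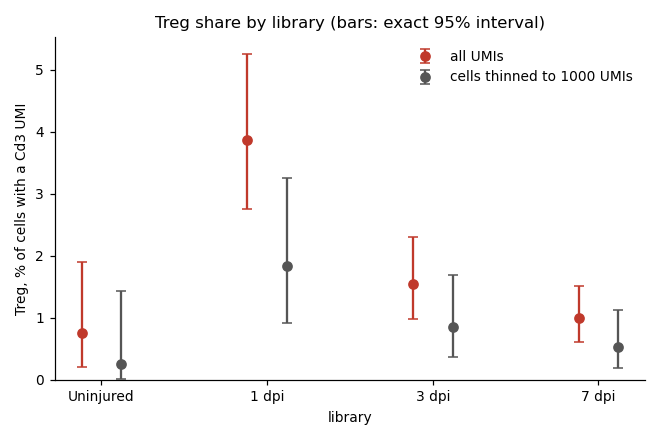
Tregs as a percentage of cells with a *Cd3* UMI in each library (x axis), from all UMIs (red) and after thinning each cell to 1000 UMIs (grey); bars are exact 95% binomial intervals. The 1 dpi library has the highest share by both counts, 3.86% and 1.83%, and the bars overlap after thinning.

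Which genes set the Tregs apart from the other CD4 T cells was tested next. The UMIs of each cell group were summed per library, and the 4 libraries entered an edgeR quasi-likelihood fit with the library as a block, so the fit looks for a difference that the 4 time points share. The genes of the gates were left out. Of 5358 genes tested, 15 were higher in Tregs (0.28% of those tested) and 18 were lower (0.336%) at a Benjamini-Hochberg adjusted p under 0.05, 0.616% in either direction. The 15 included the interleukin-2 receptor alpha chain, the transcription factor Helios, CTLA-4, receptors of the TNF receptor family, the ST2 receptor and amphiregulin. The 18 included interferon gamma, TNF, CCL5, TCF-1 and CCR7. Without the cells that carry mesenchymal UMIs, 41 of 3821 genes were higher (1.07%) and 53 lower (1.39%), and all 30 of the 33 calls that could still be tested were called again in the same direction. The calls that could not be tested there were *Lilrb4a*, *Cxcl14* (log2 fold change -2.59 with all cells) and the collagen gene *Col14a1* (2.07). How far RNA of mesenchymal cells made up these calls was not tested. Without the Uninjured library, whose 4 Tregs held 12329 UMIs, 3 genes remained higher (*Ikzf2*, *Il2ra* and *Itgae*) and 2 lower (*Nkg7* and *Ms4a4b*); without 1 dpi the counts were 7 and 13, and without 7 dpi 35 and 23. With no library term no gene passed in edgeR, with 207 of 4049 genes at an unadjusted p under 0.05, while DESeq2 with the library term called 15 and 10.

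**Figure D3:**
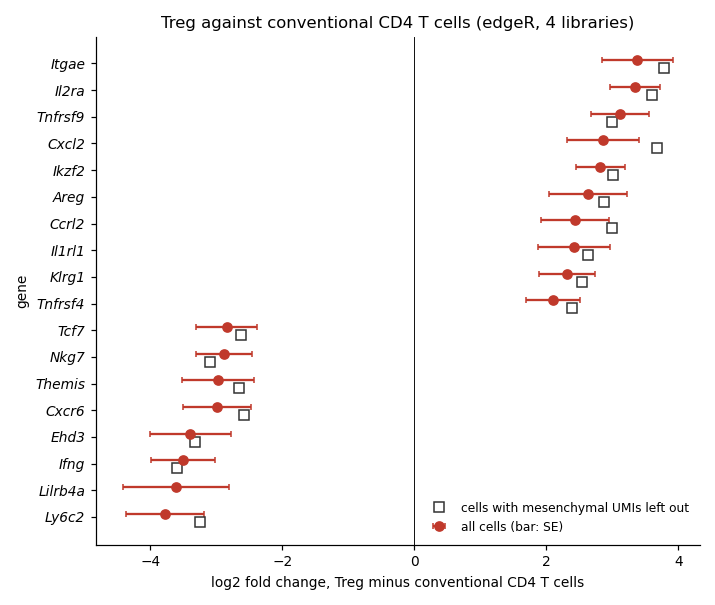
Log2 fold change, Treg minus conventional CD4 T cells (x axis), for 18 of the 20 genes with the largest changes in either direction; red points with bars are the fit on all cells with its standard error, open squares the fit without cells that carry mesenchymal UMIs. *Iglc1* and *Jchain*, at -11.00 and -8.09, lie off the axis and are not drawn, and *Lilrb4a* was not tested without those cells. Each of the 17 genes with both values keeps its direction.

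Among transcription factors, *Ikzf2* (chromosome 1, 69531214 to 69687245) was the clearest mark of the Tregs after *Foxp3*. It encodes Helios, an Ikaros family factor that stabilises the Treg state. In Uninjured, 1, 3 and 7 dpi its level was 568, 1024, 721 and 619 CPM in Tregs and 9.93, 208, 82.9 and 91.2 CPM in conventional CD4 T cells. The lowest Treg level, from 7 UMIs in Uninjured, was thus above the highest CD4 level, and 83.7% of Tregs had an *Ikzf2* UMI against 14.6% of conventional CD4 T cells. The log2 fold change was 2.82 ± 0.37 (SE, n = 4 libraries; edgeR adjusted p = 0.000138), and this call held without any 1 library. 22 of the 26 listed Treg transcription factors were tested; 1 was higher, 2 were lower, and their median log2 fold change was -0.15 against -0.07 over all genes tested. The 2 lower genes were *Tcf7* (TCF-1) and *Satb1*, both high in naive T cells. *Tcf7* stood at 81.1, 129, 16.0 and 0 CPM in Tregs and at 321, 483, 217 and 122 CPM in conventional CD4 T cells, lower in each library, with a log2 fold change of -2.85 ± 0.47 (adjusted p = 0.00137); *Satb1* was lower in 3 of 4 libraries (-1.76 ± 0.40, adjusted p = 0.0340). *Gata3* (log2 fold change 0.59, adjusted p = 0.777), *Rora* (-0.16, 0.980) and *Maf* (-0.13, 0.980) did not pass, with 61.6% of Tregs and 33.8% of conventional CD4 T cells carrying *Gata3*. *Hif1a* (0.87) and *Nfil3* (1.08) did not pass either, but both did without the cells that carry mesenchymal UMIs (1.18 and 1.42), and *Hif1a* also did from thinned cells (1.17). *Tcf7* and *Satb1* were not called without the Uninjured library (log2 fold changes -2.75 and -2.13), nor *Satb1* without 1 or without 7 dpi (-1.34 and -1.46) or with DESeq2 (-1.64). *Satb1* was also not called without doublets (-1.60), without cells beyond 2 SD (-1.67) or against cells with or without *Cd4* (-1.32).

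Surface proteins made up the largest group of higher genes. Of 29 listed genes 23 were tested, 8 were higher, 0 were lower and 15 did not pass, with a median log2 fold change of 0.94 against -0.07 over all genes. Without the cells that carry mesenchymal UMIs 10 were higher, with *Cd83* (1.91) and *Cd81* (1.69) added, and *Gpr183*, a receptor of oxysterols, was lower (-1.43). The list was put together from known Treg biology with earlier results of these data in view, so its direction is no independent evidence. *Il2ra*, the receptor chain that gives Tregs their high affinity for interleukin-2 (chromosome 2, 11642807 to 11693193), stood at 406, 93.8, 200 and 326 CPM in Tregs and at 9.93, 8.19, 21.6 and 31.3 CPM in conventional CD4 T cells. Every Treg library was above every CD4 library, and the log2 fold change was 3.34 ± 0.38 (adjusted p = 2.98e-05). The 5 UMIs of the Uninjured Tregs were all in 1 cell. *Ctla4*, the inhibitory receptor that competes for CD80 and CD86 (chromosome 1, 60887000 to 60915832), stood at 406, 770, 537 and 443 CPM against 26.5, 298, 224 and 52.1 CPM. Again the ranges did not overlap, with 5 UMIs in the Uninjured Tregs, and the log2 fold change was 1.84 ± 0.37 (adjusted p = 0.0132).

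3 receptors of the TNF receptor family were higher. *Tnfrsf4* (OX40; chromosome 4, 156013843 to 156016612) stood at 162, 211, 184 and 836 CPM in Tregs against 13.2, 88.9, 53.1 and 73.0 CPM in conventional CD4 T cells, with a log2 fold change of 2.10 ± 0.41 (adjusted p = 0.00848). Of its 100 UMIs at 7 dpi, 40 came from 1 cell; without that library the gene was not called (log2 fold change 1.51). *Tnfrsf18* (GITR; chromosome 4, 156026164 to 156028895), a neighbour of *Tnfrsf4* on chromosome 4, stood at 1054, 278, 280 and 502 CPM against 43.0, 109, 89.6 and 130 CPM (1.86 ± 0.36, adjusted p = 0.00805). *Tnfrsf9* (4-1BB) stood at 81.1, 102, 112 and 335 CPM against 0, 22.2, 8.29 and 20.8 CPM (3.12 ± 0.44, adjusted p = 0.000259). For all 3 genes the Treg libraries were above the CD4 libraries without overlap. The Uninjured Treg values rest on 4 cells, with 2 UMIs of *Tnfrsf4*, 13 of *Tnfrsf18* and 1 of *Tnfrsf9*. Without the Uninjured library the log2 fold changes were 2.03, 1.49 and 3.01 and none of the 3 was called.

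*Itgae* (CD103, the integrin chain that binds E-cadherin), *Klrg1* (an inhibitory receptor of differentiated cells) and *Il1rl1* (ST2) were higher as well. *Itgae* stood at 0, 121, 104 and 50.2 CPM in Tregs and 0, 11.7, 6.63 and 5.21 CPM in conventional CD4 T cells, with 0 UMIs in both groups of the Uninjured library and 3.38 ± 0.53 as its log2 fold change (adjusted p = 0.00107). *Klrg1* stood at 81.1, 46.9, 136 and 217 CPM against 19.9, 16.4, 18.2 and 23.4 CPM, above them in each library (2.31 ± 0.42, adjusted p = 0.00456). Its Uninjured value in Tregs was 1 UMI. *Il1rl1* (chromosome 1, 40429570 to 40465415) stood at 0, 58.6, 184 and 83.6 CPM against 9.93, 21.05, 4.98 and 20.8 CPM, higher in the 3 injured libraries (2.42 ± 0.55, adjusted p = 0.0306). *Izumo1r*, which encodes folate receptor 4 and was named as a marker of these cells, stood at 81.1, 281, 80.1 and 16.7 CPM against 13.2, 113, 44.8 and 15.6 CPM; the difference did not pass (0.94, adjusted p = 0.516). Without the Uninjured library *Klrg1* (2.40), *Il1rl1* (2.51) and *Ctla4* (1.65) were not called; neither were *Il1rl1* without 1 or without 3 dpi (3.04 and 1.46) or with DESeq2 (2.34), *Itgae* without 1 dpi (3.46) or *Ctla4* without 1 or without 7 dpi (2.19 and 1.51).

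**Figure D4:**
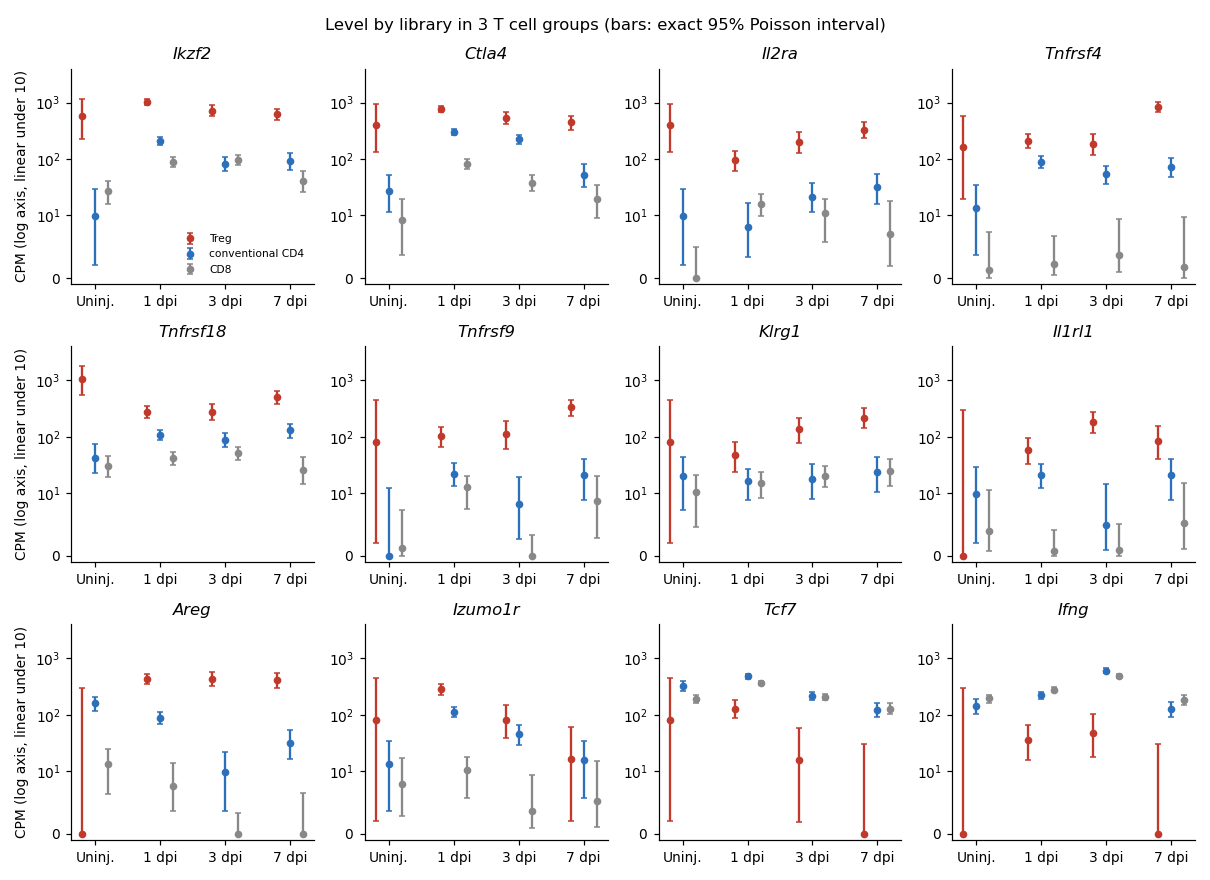
Level in CPM (y axis, log scale, linear under 10) of 12 genes in Tregs (red), conventional CD4 T cells (blue) and CD8 T cells (grey) in each library; bars are exact 95% Poisson intervals on the UMI counts. *Ikzf2*, *Ctla4*, *Il2ra*, *Tnfrsf4*, *Tnfrsf18*, *Tnfrsf9* and *Klrg1* are highest in Tregs in each library, *Areg* and *Il1rl1* in the 3 injured libraries, and *Ifng* lowest in Tregs in each library. The Uninjured Treg points come from 4 cells, with 1 UMI each of *Tnfrsf9* and *Klrg1*, 2 of *Tnfrsf4* and 5 of *Il2ra*.

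Among secreted and suppressive mediators, *Areg* (amphiregulin, a ligand of the EGF receptor; chromosome 5, 91139599 to 91148432) was the one called higher than in conventional CD4 T cells, and *Ifng*, *Tnf* and *Ccl5* were lower. *Areg* stood at 0, 430, 433 and 410 CPM in Tregs and at 159, 88.9, 9.95 and 31.3 CPM in conventional CD4 T cells. Without the cells that carry mesenchymal UMIs it stood at 605 CPM at 1 dpi, 1152 at 3 dpi and 596 at 7 dpi in Tregs. No UMI was found among 12329 in Uninjured, which allows up to 299 CPM (exact 95% Poisson upper limit), while 2 Uninjured CD4 T cells held 48 UMIs. The log2 fold change was 2.63 ± 0.59 (adjusted p = 0.0306; 3 of 4 libraries higher). Without the Uninjured or without the 1 dpi library it was 3.34 and 2.91 and the gene was not called, nor was it with DESeq2 (2.61). 30 of the 86 Tregs had an *Areg* UMI (34.9%, exact 95% interval 24.9 to 45.9), against 5.37% of conventional CD4 T cells and 0.784% of CD8 T cells. After thinning each cell to 1000 UMIs the shares were 18.8%, 1.94% and 0.132%. Expression was uneven among the cells, as 8 Tregs with at least 10 UMIs held 145 of the 213 *Areg* UMIs.

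Tregs were few among the cells with *Areg* and high per UMI. They held 9.68%, 5.61% and 8.03% of all *Areg* UMIs of the 1, 3 and 7 dpi libraries. A second gate took cells with *Ptprc* and *Gata3* UMIs and none of *Cd3*, *Klrb1c*, *Ms4a2*, *Cpa3* or *Csf1r*, where *Areg* stood at 1131, 314, 146 and 283 CPM. These 325 cells were mixed, with *Il1rl1* UMIs in 78 cells and *Arg1* in 61, genes of group 2 innate lymphoid cells, *Il13* and *Il5* in 4 each, and the NK cell genes *Gzma* in 106, *Klre1* in 80 and *Ncr1* in 69. The Treg level was above that of the gate at 1, 3 and 7 dpi, and the Poisson intervals overlapped at 1 and 7 dpi (353 to 518 against 261 to 376, and 303 to 542 against 227 to 348) but not at 3 dpi (325 to 565 against 118 to 178). In the macrophage gate, cells with *Csf1r* and *Cd68* UMIs and none of *Cd3*, the level was 43.3, 29.97, 27.2 and 36.9 CPM. The macrophage gate still held 36.6%, 14.9% and 10.5% of all *Areg* UMIs at 1, 3 and 7 dpi. The gate with *Gata3* held 10.6%, 9.67% and 14.6%, so both held more than the Tregs.

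**Figure D5:**
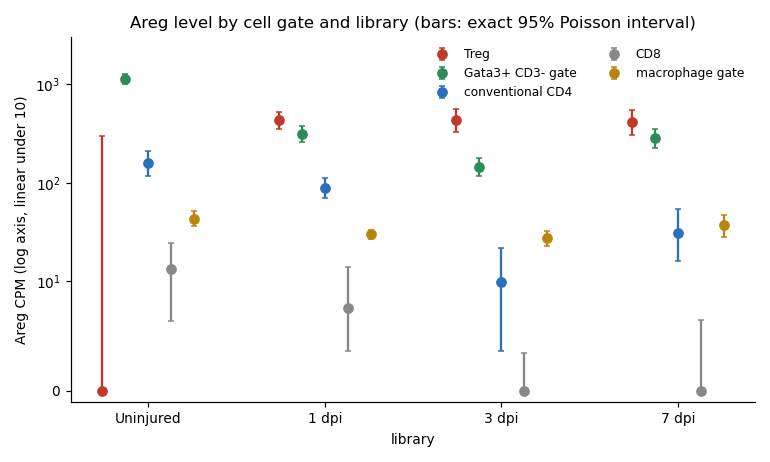
*Areg* level in CPM (y axis, log scale, linear under 10) in 5 cell gates by library; bars are exact 95% Poisson intervals. Tregs sit between 410 and 433 CPM in the 3 injured libraries, the gate with *Gata3* and no *Cd3* UMIs is at 1131 CPM in Uninjured and 146 CPM at 3 dpi, and CD8 T cells are at 13.2 CPM or below.

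*Ifng*, the effector cytokine of type 1 T cells (chromosome 10, 118441046 to 118445892), stood at 0, 35.2, 48.1 and 0 CPM in Tregs against 142, 222, 600 and 125 CPM in conventional CD4 T cells, lower in each library (-3.51 ± 0.48, adjusted p = 0.000211). *Ccl5*, a chemokine of effector cells, stood at 0, 86.01, 176 and 209 CPM against 625, 400, 1464 and 315 CPM (-2.33 ± 0.45, adjusted p = 0.00816), and *Tnf* was lower in 3 of 4 libraries (-2.04 ± 0.47, adjusted p = 0.0336). 11 of the 27 listed mediators were tested, with a median of -0.28. *Il10*, a classical suppressive cytokine, was not tested: 36 of its 40 UMIs at 1 dpi were in 1 Treg. *Il5*, *Il13*, *Il21*, *Csf2* and *Pdgfb* had no UMI in the 86 cells. *Tgfb1* (-0.28, adjusted p = 0.949), *Gzmb* (1.12, 0.538) and *Fgl2* (0.90, 0.598) did not pass, and *Gzmb* passed without the cells that carry mesenchymal UMIs (1.63). Without the Uninjured library *Ifng* (-3.45), *Ccl5* (-2.12) and *Tnf* (-2.17) were not called, nor were *Ccl5* (-2.38) and *Tnf* (-1.72) without 1 dpi or *Tnf* (-1.99) without 3 dpi. *Tnf* was also not called with DESeq2 (-1.92) or against cells with or without *Cd4* (-1.29), nor *Ccl5* with at least 2 *Foxp3* UMIs (-1.64). Removing doublets or cells beyond 2 SD also left *Tnf* uncalled (-2.17 and -2.02).

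Of 26 listed genes for chemokine receptors and homing 19 were tested, 0 were higher and 2 lower, with a median of -0.62. In the fit without cells that carry mesenchymal UMIs *Rgs1* (1.35) and *Rgs2* (1.12), which limit signals of chemokine receptors, were higher, and *Itgb1* (-1.51), *Itga4* (-1.26) and *Klf2* (-1.21) were lower beside the same *Ccr7* and *Cxcr6*. *Ccr7*, the lymph node homing receptor, stood at 324, 93.8, 8.01 and 16.7 CPM in Tregs and at 380, 291, 119 and 104 CPM in conventional CD4 T cells, lower in each (-2.11 ± 0.42, adjusted p = 0.0110). *Cxcr6*, the receptor for CXCL16 on tissue effector cells, stood at 0, 3.91, 32.1 and 25.1 CPM against 43.0, 97.1, 184 and 107 CPM (-2.99 ± 0.52, adjusted p = 0.00263). *Ccr2*, which binds CCL2, was carried by 51.2% of Tregs but did not pass the test (0.30, adjusted p = 0.937), and *Ccr8* had 1 UMI in the 86 cells. Without the Uninjured or without the 1 dpi library neither was called, with log2 fold changes of -2.29 and -2.39 for *Ccr7* and -3.00 and -2.49 for *Cxcr6*. *Ccr7* was not called against cells with or without *Cd4* either (-1.52).

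The other genes with the largest changes were, on the higher side, *Cxcl2* and *Ccrl2*, and on the lower side *Iglc1*, *Jchain*, *Ly6c2*, *Lilrb4a*, *Ehd3*, *Themis* and *Nkg7*. *Cxcl2*, a neutrophil-attracting chemokine, had 0, 16, 45 and 129 UMIs in Tregs, and 106 of the 129 at 7 dpi were in 1 cell (2.86 ± 0.55, adjusted p = 0.00829). *Ccrl2*, an atypical receptor of chemerin, had 1, 23, 7 and 9 UMIs in Tregs and 4, 7, 11 and 4 in conventional CD4 T cells (2.44 ± 0.51, adjusted p = 0.0155). The immunoglobulin genes *Iglc1* and *Jchain* had no UMI in Tregs, and in conventional CD4 T cells the UMIs came from few cells: 1288 *Iglc1* UMIs were in 1 cell at 7 dpi and 109 *Jchain* UMIs in 1 cell in Uninjured. *Nkg7*, a cytotoxic granule gene, stood at 0, 39.1, 64.1 and 16.7 CPM against 165, 230, 466 and 117 CPM (-2.89 ± 0.42, adjusted p = 0.000440). *Themis*, which acts in T cell receptor signalling, had 1, 4, 1 and 2 UMIs in Tregs and 25, 131, 93 and 15 in conventional CD4 T cells (-2.97 ± 0.54, adjusted p = 0.00456). *Ly6c2*, *Lilrb4a* and *Ehd3* had log2 fold changes of -3.78, -3.61 and -3.39. Of these 9 genes *Nkg7* kept its call without any 1 library, and *Iglc1* and *Jchain* kept theirs without 1 and without 3 dpi, the fits in which they were tested. The other 6 were not called without the Uninjured library, where *Cxcl2* was at 2.83, *Ccrl2* at 2.51, *Themis* at -3.20, *Ly6c2* at -3.78, *Lilrb4a* at -3.67 and *Ehd3* at -3.39. Without 1 dpi *Ccrl2* (1.96), *Themis* (-2.55), *Ehd3* (-4.09) and *Lilrb4a* (-3.65) were not called, nor was *Lilrb4a* without 3 dpi (-3.19). Against cells with or without *Cd4* the value of *Cxcl2* was 0.52 and it was not called. With DESeq2 *Iglc1* (-2.68), *Jchain* (-3.58), *Themis* (-2.74) and *Lilrb4a* (-2.92) were not called, and with at least 2 *Foxp3* UMIs *Ccrl2* (2.01) and *Lilrb4a* (-2.80) were not. *Lilrb4a* was also not called without cells beyond 2 SD (-3.49).

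Several pathways showed few calls or none. The apoptosis inhibitor *Bcl2* was the 1 lower gene among 13 tested of NF-kB and TNF receptor signalling (0 higher), at 406, 15.6, 8.01 and 41.8 CPM in Tregs against 179, 194, 139 and 128 CPM (-2.35 ± 0.52, adjusted p = 0.0272). Without the Uninjured or the 1 dpi library *Bcl2* was not called (-3.09 and -1.64), nor with DESeq2 (-2.20) or without cells beyond 2 SD (-2.28). None of 11 T cell receptor and costimulation genes, 19 cell cycle genes, 14 interferon-stimulated genes, 14 immediate early and heat shock genes and 10 genes of BMP and TGF-beta reception passed in either direction, also without the cells that carry mesenchymal UMIs, nor did any of the 7 mesenchymal genes. Their median log2 fold changes were -0.57, 0.18, -0.08, -0.63, -0.22 and 0.06, and all 14 immediate early and heat shock genes had values below 0. In the fit 418 genes had an unadjusted p under 0.05. In sums simulated with known changes, the same fit recovered 4.44% of the 2-fold and 70.7% of the 4-fold changes. A gene that did not pass against the CD4 T cells may thus still differ by 2-fold. A BMP receptor gene, *Bmpr1a*, had 18 UMIs in the 86 cells and was not tested.

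Set against CD8 T cells (765 cells), the Tregs differed in more genes. Of 6624 genes, 82 were higher (1.24%) and 163 lower (2.46%), and without the cells that carry mesenchymal UMIs 137 (2.86%) and 241 (5.03%). The lower genes included all 4 tested neutrophil genes (*Ngp*, *Retnlg*, *S100a8* and *S100a9*), *Lyz2*, and *Eomes*, *Gzma* and *Klre1* of the NK cell list. The 7 neutrophil genes summed to 894, 1141, 2644.5 and 278 CPM in CD8 T cells and to 0, 192, 56.1 and 0 CPM in Tregs. The part of RNA of other cells in these calls was not tested. 12 of 24 tested surface proteins were higher, with a median log2 fold change of 1.85 against -0.10 over all genes. *Tnfrsf4* stood at 1.32, 2.27, 3.70 and 1.75 CPM in CD8 T cells (log2 fold change 6.41, adjusted p = 2.11e-33), and *Areg* at 13.2, 7.57, 0 and 0 CPM (5.85, adjusted p = 2.17e-32). *Izumo1r*, which did not pass against the CD4 T cells, was higher than in CD8 T cells (3.80, adjusted p = 4.85e-11), as were *Lrrc32* (GARP, which holds latent TGF-beta; 3.36) and *Nrp1* (2.05). 10 of 23 transcription factors were higher, among them *Ikzf2* (3.22), *Maf* (2.33), *Prdm1* (2.02), *Gata3* (1.92) and *Hif1a* (1.85), and 5 were lower, among them *Tbx21* (-2.68), which drives type 1 effector cells. *Icos* was higher (2.12) and *Lck* lower (-1.24) among 11 T cell receptor and costimulation genes. Of 12 mediators 1 was higher and *Ccl5* (-5.09), *Ifng* (-3.74) and *Gzmb* (-1.58) were lower. *Ccr4* (4.45), *Ccr2* (1.24), *Rgs1* and *Rgs2* were higher and *Ccr7*, *Cxcr6* and *Itga4* were among the lower of 19 homing genes. *Ikzf2*, *Ctla4*, *Il2ra*, *Tnfrsf4*, *Tnfrsf9*, *Tnfrsf18*, *Klrg1*, *Il1rl1*, *Itgae* and *Areg* were thus higher in Tregs than in either T cell group. Without the 1 dpi library the counts against CD8 T cells were 29 and 56, without 3 dpi 51 and 82, and without 7 dpi 63 and 89.

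*Areg*, *Klrg1* and *Il1rl1*, all called higher in Tregs, were each found in a minority of the cells, with UMIs in 34.9%, 27.9% and 25.6% of Tregs. Other genes of effector cells, *Cxcr6* and *Ccl5*, were lower in Tregs than in conventional CD4 T cells. 46 of 86 Tregs carried a UMI of *Areg*, *Klrg1* or *Il1rl1* (53.5%), against 9.60% of conventional CD4 T cells and 7.32% of CD8 T cells. Since the 3 genes were called higher in Tregs in these same data, this contrast is no independent evidence. The share of Tregs with any of the 3 was 17 of 38 at 1 dpi (44.7%, exact 95% interval 28.6 to 61.7), 13 of 23 at 3 dpi (56.5%, 34.5 to 76.8) and 15 of 21 at 7 dpi (71.4%, 47.8 to 88.7). These intervals overlapped between the 3 libraries.

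Cells with *Areg* UMIs carried more of several other genes. *Klrg1* was found in 46.7% of the 30 *Areg*-positive Tregs and in 17.9% of the 56 others, *Il1rl1* in 36.7% and 19.6%, *Il2ra* in 53.3% and 30.4%, and *Tnfrsf9* in 53.3% and 21.4%. Median depth was 4610 against 3293 UMIs, so more UMIs of any gene were captured in the *Areg*-positive cells. On the scale of CPM *Ctla4* was at 902 and 475, *Ikzf2* at 1195 and 649, *Rora* at 549 and 234, *Tnfrsf18* at 320 and 365 and *Ccr2* at 228 and 244, so the last 2 were not higher in the *Areg*-positive cells. *Izumo1r* (239 and 125 CPM) and *Tcf7* (125 and 39.6 CPM) were higher too, so the rise was not limited to effector genes, while *Ccr7* was lower (27.2 and 79.2 CPM). The 15 cells that carry mesenchymal UMIs, 4 of them *Areg*-positive, held 39.3% of all Treg UMIs. They were kept in this split, and its CPM values without them were not made.

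The course after injury could be read only between single libraries. Between 1 and 3 dpi, 316 of 3302 genes with at least 20 UMIs were at least 2-fold higher (9.57%) and 428 at least 2-fold lower (13%). Between 3 and 7 dpi 241 of 2018 were higher (11.9%) and 340 lower (16.8%). Without the cells that carry mesenchymal UMIs the counts were 114 higher and 297 lower of 1933 in the first step and 189 higher and 170 lower of 887 in the second, and without doublets 277 were higher and 213 lower of 1364 in the second. Against the 12329 UMIs of the Uninjured Tregs, 861 of 2325 genes were at least 2-fold higher at 1 dpi (37%) and 289 lower (12.4%); a gene at 0 in the Uninjured Tregs counts as higher, so this split moves with depth and nothing is read from it. *Ikzf2*, *Ctla4* and *Areg* moved by less than 2-fold in both steps, also without the cells that carry mesenchymal UMIs. *Izumo1r* went from 281 CPM at 1 dpi to 80.1 at 3 dpi (ratio 0.285, exact conditional 95% interval 0.131 to 0.554) and 16.7 at 7 dpi (0.209, 0.0222 to 0.980). *Klrg1* was 2.90-fold higher at 3 dpi than at 1 dpi (1.31 to 6.66) and *Il2ra* 2.14-fold (1.17 to 3.90). With the mesenchymal-UMI cells left out *Klrg1* stood at 66.0 and 391.8 CPM, *Il2ra* at 132 and 576 CPM and *Izumo1r* at 391 and 161 CPM in these libraries. *Tcf7* and *Ccr7* went from 129 and 93.8 CPM to 16.0 and 8.01 CPM (ratios 0.124 and 0.0854), from 33 and 24 UMIs to 2 and 1. Of the 24 *Ccr7* UMIs at 1 dpi, 12 were in 1 cell and 7 in another. Between 3 and 7 dpi, *Cxcr4*, the CXCL12 receptor, went from 409 to 50.2 CPM (0.123, 0.0431 to 0.286), *Maf* from 473 to 159 CPM (0.336, 0.189 to 0.572) and *Icos* from 521 to 201 CPM (0.385, 0.231 to 0.624). In conventional CD4 T cells the levels of these genes differed in the same direction. There *Il2ra* was at 8.19 and 21.6 CPM, *Klrg1* at 16.4 and 18.2 CPM, *Tcf7* at 483 and 217 CPM, *Ccr7* at 291 and 119 CPM and *Izumo1r* at 113 and 44.8 CPM at 1 and 3 dpi, and *Cxcr4* at 498 and 138 CPM, *Maf* at 431 and 224 CPM and *Icos* at 493 and 93.8 CPM at 3 and 7 dpi.

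Cell cycle genes were low at 3 dpi and higher at 7 dpi. Of 9 such genes with enough UMIs, 7 were at least 2-fold higher at 7 dpi than at 3 dpi and 0 lower, among them *Mki67* (72.1 and 427 CPM), *Top2a* (32.1 and 251 CPM) and *Ube2c* (0 and 410 CPM). 34 of the 51 *Mki67* UMIs at 7 dpi and 18 of the 30 *Top2a* UMIs were in 1 cell. By cells, 6 of 21 Tregs at 7 dpi held at least 3 UMIs of 9 mitotic genes (28.6%, 11.3 to 52.2), against 2 of 23 at 3 dpi (8.70%, 1.07 to 28.0) and 2 of 38 at 1 dpi (5.26%, 0.644 to 17.7), and these intervals overlapped.

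Some of the largest steps were not seen without the cells that carry mesenchymal UMIs. *Col5a2*, *Pcsk5*, *Col1a1*, *Col5a1* and *Loxl2* led the list at 3 dpi over 1 dpi with ratios of 25.6, 21.9, 11.5, 9.86 and 9.02, and all 5 were at 92.2 CPM or below at 3 dpi without the cells that carry mesenchymal UMIs. *Plpp3*, *Medag* and *Sulf1* were among the genes with the largest drop at 7 dpi, with ratios of 0.0793, 0.127 and 0.130, and were at 23.0 CPM or below in both libraries without those cells. *Spty2d1*, *Limd2* and *Lbh* were lower at 3 dpi than at 1 dpi (0.165, 0.168 and 0.176) and had UMIs in 20, 28 and 27 of 38 Tregs at 1 dpi; without those cells *Lbh* was at 352 and 92.2 CPM. *Il10* and *Dpp4* completed the list at ratios of 0.154 and 0.181. *Hist1h1e*, *Cd74*, *Top2a*, *Limd2* and *Apoe* were higher at 7 dpi than at 3 dpi (10.4, 8.70, 7.83, 6.89 and 6.13), and *Apoe* was at 69.1 CPM at 3 dpi and 13.6 CPM at 7 dpi without the cells that carry mesenchymal UMIs. *Neurl3*, at 272 and 33.5 CPM, and *Cxcr4* were lower at 7 dpi also without them, *Neurl3* at 530 and 54.2 CPM.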

How the data were processed

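Single-cell RNA of 4 libraries (Uninjured, 1, 3 and 7 dpi) was measured on the 10x platform. Per the labels, the authors made the deposited UMI counts with Cell Ranger 5.0.0 and the STAR aligner; the labels name mm10 and Seurat 3.1.1. The labels say that reads were down-sampled across samples as needed. The deposited counts are whole numbers per gene and cell, and total counts per library were 91146335 to 129007669. Gene positions are from GENCODE M21 (GRCm38), which matched 32158 of 32285 gene IDs.

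Cells were kept up to 10% mitochondrial UMIs. No other filter was applied. Scrublet scores (scanpy 1.11.5) marked the top 7.5% of cells per library, 10 Tregs among them, as likely doublets; these were removed only as an alternative. 1 Treg barcode also occurred in another library. CPM are UMIs per 1e+06 UMIs of the group, with exact Poisson intervals. Ratios have exact conditional intervals. UMIs per library and cell group were tested with edgeR 4.0.16 (filterByExpr, TMM, quasi-likelihood F test, library as block; the SE is the log2 fold change over the root of F); DESeq2 1.42.0 was an alternative. Scripts were tested on simulated data, where the fit against CD8 T cells recovered 0% of the 2-fold and 69.6% of the 4-fold changes. The libraries are different time points. The p-values set the Treg difference against an estimate of its spread between them, for which edgeR pools information over all genes. They are thus not a measure of the spread of 1 gene over the 4 libraries alone, nor of the spread between animals.

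The members, gene lists and tests were chosen with earlier results of these data known. Genes named were those of the lists, the 10 in each direction with the largest log2 fold change among those called in Treg against CD4 T cells that differ in that direction in at least 3 libraries, and the 5 in each direction with the largest ratio per time step (at least 30 UMIs in the higher and 3 in the lower library, and a Treg level in the higher library at least that of all its cells). Alternatives were other mitochondrial limits, at least 2 *Foxp3* UMIs, a *Cd4* UMI, doublets or cells beyond 2 SD removed, thinning to 1000 UMIs, comparison cells with or without *Cd4*, TMM-scaled CPM, RLE factors, no gene filter, no library term, and leaving out each library. Leaving out cells with mesenchymal UMIs, and thinning before the sums were tested, were added after the data were seen. Results for a few genes are not reported here.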

Additional observations from a re-analysis of the deposited data

Results flagged for a closer look

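7 of the listed genes reported here were at least 2-fold higher in Tregs than in conventional CD4 T cells in 1 library and at least 2-fold lower in another, with counting intervals that exclude equal levels; each time point is 1 library, so these differences between time points were not tested. *Trac* stood at 973 CPM in Tregs against 404 CPM in Uninjured and 192 against 474 at 3 dpi, *Lat* at 811 against 258 and 128 against 307, with 12 and 10 UMIs in the Uninjured Tregs. *Cxcr4* stood at 649 CPM in Uninjured (185 in CD4 T cells) and 50.2 at 7 dpi (138), from 8 UMIs in the Uninjured Tregs. *Mki67* stood at 427 CPM at 7 dpi (151 in CD4 T cells) and 72.1 at 3 dpi (217), *Top2a* at 251 (96.4) and 32.1 (217), *Hmgb2* at 1848 (683) and 401 (1061), and *Ube2c* at 410 (44.3) and 0 (146). Without the cells that carry mesenchymal UMIs *Trac* and *Lat* at 3 dpi were at 391.8 against 565 and 277 against 387 CPM, and *Mki67* at 7 and 3 dpi at 651 against 184 and 138 against 249 CPM. *Hmgb2* was at 714.5 against 1195 CPM at 3 dpi, so *Trac*, *Lat*, *Mki67* and *Hmgb2* were then less than 2-fold lower in Tregs there.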

How the results depend on the processing

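Treg shares of *Cd3*-positive cells moved outside their intervals with at least 2 *Foxp3* UMIs (0.187%, 2.54%, 0.805% and 0.426% in Uninjured, 1, 3 and 7 dpi), with a *Cd4* UMI (2.24%, 0.671% and 0.284% in the last 3), with thinned cells (1.83%, 0.857% and 0.520%), and at 7 dpi without cells that carry mesenchymal UMIs (1.77%). 1 dpi was highest in each. Against conventional CD4 T cells (15 higher, 18 lower), the counts were 0 and 0 without the library term, 69 and 130 with comparison cells with or without *Cd4*, 41 and 53 without cells that carry mesenchymal UMIs, and 24 and 38 from thinned cells; the lower count alone moved to 10 (DESeq2), 70 (no gene filter) and 61 (Tregs with a *Cd4* UMI). Leaving out each library gave 3 to 35 higher and 2 to 23 lower genes. Against CD8 T cells (82 and 163) they were 54 and 60 with DESeq2, 28 and 24 without the library term and 41 and 60 with at least 2 *Foxp3* UMIs; 37 were higher with a *Cd4* UMI and 137 without mesenchymal UMIs. Leaving out each library gave 29 to 63 higher and 56 to 145 lower. The share of genes past 2-fold was 35.7% and 40.3% (3 against 1, and 7 against 3 dpi) with at least 2 *Foxp3* UMIs, 17.0% and 35.9% without doublets and 13.6% and 26.2% thinned, against 22.5% and 28.8%; for the second step it was 40.5% without mesenchymal UMIs. Thinning lowered the shares of Tregs with *Ctla4*, *Tnfrsf4*, *Izumo1r* and *Areg* to 47.1%, 27.1%, 17.6% and 18.8%; at least 2 *Foxp3* UMIs raised *Ctla4* and *Izumo1r* to 87.2% and 48.9%. The cause was not tested.

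Directions turned for *Col2a1* against CD8 T cells (log2 fold change 2.29 with DESeq2, 0.073 without mesenchymal UMIs), and in log2 ratio for *Dpp4* (0.79 thinned), *Apoe* (-1.11 with at least 2 *Foxp3* UMIs, -2.35 without mesenchymal UMIs) and *Sulf1* (0.49 without doublets). No paired analysis was possible because each time point is 1 library; the library term pairs cell groups within a library. With 86 Tregs, 4 of them Uninjured, genes of few UMIs were not testable, and pooled muscles give no spread between animals.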

Other observations

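Among the 41 genes higher in Tregs than in conventional CD4 T cells without the cells that carry mesenchymal UMIs, several were outside the lists and were chosen here after their values were seen. *Itgb8*, an integrin chain that activates latent TGF-beta, had UMIs in 10 of all 86 Tregs and in 8 of all 521 conventional CD4 T cells, with 9 of its 21 Treg UMIs in 1 cell. In the fit without the cells that carry mesenchymal UMIs it stood at 0, 82.6, 46.1 and 54.2 CPM in Uninjured, 1, 3 and 7 dpi against 0, 12.3, 4.40 and 0 CPM (log2 fold change 2.94 ± 0.77, edgeR adjusted p = 0.0132). *Samsn1*, a signalling adaptor, was in 55 of 86 Tregs and 141 of 521 CD4 T cells (1.41 ± 0.34, adjusted p = 0.00487), and *Gpr55*, a lysophospholipid receptor, in 16 and 14 cells (2.18 ± 0.65, adjusted p = 0.0468). *Neb*, which encodes nebulin of the muscle thin filament, was in 15 and 10 cells with at most 6 UMIs in a cell (3.25 ± 0.75, adjusted p = 0.00263). *Il10* was called too (2.90), with 36 of its 44 UMIs in 1 Treg.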
